A study of Homo sapiens with 10 samples.

Results

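The U2OS line SCAN1#1, which carries TDP1 H493R, was set against wild-type (WT) U2OS cells in DNA-RNA immunoprecipitation sequencing (DRIP-seq), within each of 2 experiments. The members are 4 of the 10 samples of the series: the WT and SCAN1#1 DRIP libraries of experiment 1 and those of experiment 2, taken by genotype, line and replicate number from the labels. The series holds 5 DRIP and 5 input samples. The other DRIP library, from the line SCAN1#2, was left out, and the input samples are not analysed here. U2OS is an established human osteosarcoma line, and the labels give no treatment. Per the labels, SCAN1#1 is 1 line of the mutant genotype, and how it was made is not described in the sources used here. Every comparison below is therefore between 1 mutant line and WT cells, and a difference of genotype and a difference between lines cannot be told apart. The S9.6 antibody came from 1 lot in experiment 1 and from a mix of 2 other lots in experiment 2, so a lot is shared within a pair and never across pairs. The replicate number is the experiment number. Whether the replicates came from separate cultures is not stated in the labels, so a p-value below covers no more than the spread among these 4 libraries, which may be technical.

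R-loops are structures in which nascent RNA pairs with its template DNA and leaves the other strand single. They form behind RNA polymerase, most readily at active promoters and transcript ends and where the displaced strand is rich in G, and the S9.6 antibody binds their RNA-DNA hybrids. TOP1 relaxes the supercoils that transcription makes, and TDP1 cuts the bond between DNA and a TOP1 molecule that has become trapped on it. TDP1 H493R is the change behind spinocerebellar ataxia with axonal neuropathy (SCAN1). The title of the series names the repair of transcriptional double-strand breaks as its subject. The libraries are bulk, so hybrids in fewer cells and fewer hybrids per cell cannot be told apart, and a peak over a gene does not measure its RNA. Peaks carry no strand, and neighbouring or overlapping genes can share one.

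The deposited lists held 82545 peaks for WT and 63456 for SCAN1#1 in experiment 1, and 89445 and 110745 in experiment 2. Every list was cut to its 63456 peaks of highest -log10 p, the length of the shortest. The lowest -log10 p kept was then 6.13 and 3.87 in experiment 1 and 7.69 and 9.92 in experiment 2, WT first. The sources used here give no read depth, so no counting interval can be given for a peak. The cut lists covered 42.7 Mb (WT) and 41.4 Mb (SCAN1#1) in experiment 1 and 43.9 and 46.5 Mb in experiment 2. Libraries of a pair shared more bases than libraries of a genotype: the Jaccard index (shared over joint covered bases) was 0.401 and 0.466 within pairs 1 and 2, 0.368 between the WT libraries and 0.365 between the SCAN1#1 libraries. Libraries that share neither experiment nor genotype were at 0.380 (WT of experiment 1, SCAN1#1 of experiment 2) and 0.327 (SCAN1#1 of experiment 1, WT of experiment 2). The values within a genotype lay between these. TDP1 itself (chr14:89954968-90044764, hg38) was covered over 0.722% in SCAN1#1 of experiment 1 and at 0% in the other 3 libraries, below the mean of 2% needed for testing. In the deposited lists its values were 0.661% and 0.918% in WT and 0.722% and 1.42% in SCAN1#1. A point mutation cannot be checked by peaks.

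The osteosarcoma origin was checked on marker genes. Of 12 osteoblast and mesenchymal markers, 9 passed the minimum, with COL1A1 covered over 66.7% and 55.8% in WT and VIM over 48.0% and 34.5%. Others of the list were hardly covered in WT, such as FN1 at 1.41% and 4.15% and TGFBI at 0.934% and 0%. TGFBI passed the minimum only through its SCAN1#1 values of 16.7% and 14.9%. The WT mean of the tested members was 24.6% and 18.8%, below that of the epithelial markers at 27.1% and 27.3%. The 4 liver markers had no peak in any library, and none of the 6 blood markers passed. Of the 6 epithelial markers 5 passed, led by the keratin gene KRT18 at 94.3% to 100%. In WT, KRT8 followed at 25.5% and 19.5%. EPCAM (6.87% and 8.58%), KRT19 (4.47% and 4.41%) and CDH1 (2.43% and 3.86%) were low in WT, so the epithelial mean rests largely on KRT18. Of the 6 neuronal markers 3 passed, with SYP at 5.65% to 8.36%. KRT18 was at 96.2% and 100% in WT and 94.3% and 97.2% in SCAN1#1, which overlap. The part of other cell types in the results was not tested.

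The promoters shown first are those of the named genes (described below) whose promoter window was covered differently by at least 50 percentage points in both pairs and in the same direction. The window is the 300 bases from 250 upstream to 50 downstream of the gene start, and 26 of the 30 named genes have one in the RefSeq table. The 4 chosen this way, after their values were seen, are printed over their 250 upstream bases on the gene's strand, 5′ to 3′, from RefSeq on GRCh38.p14, with runs of 4 or more G in capitals. They are NAT14 (chr19:55484938-55485187, plus strand), DDIT4 (chr10:72273674-72273923, plus strand), RPS15 (chr19:1438146-1438395, plus strand) and SERINC4 (chr15:43800221-43800470, minus strand).
NAT14: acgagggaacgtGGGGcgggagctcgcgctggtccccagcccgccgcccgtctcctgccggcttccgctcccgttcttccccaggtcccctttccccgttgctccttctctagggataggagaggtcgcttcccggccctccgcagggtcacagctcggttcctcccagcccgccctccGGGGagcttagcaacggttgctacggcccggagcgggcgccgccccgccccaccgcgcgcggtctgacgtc
DDIT4: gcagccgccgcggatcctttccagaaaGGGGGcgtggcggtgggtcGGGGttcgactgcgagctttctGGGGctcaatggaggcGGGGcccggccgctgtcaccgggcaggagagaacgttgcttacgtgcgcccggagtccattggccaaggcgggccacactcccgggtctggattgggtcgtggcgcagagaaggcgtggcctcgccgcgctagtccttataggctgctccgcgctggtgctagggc
RPS15: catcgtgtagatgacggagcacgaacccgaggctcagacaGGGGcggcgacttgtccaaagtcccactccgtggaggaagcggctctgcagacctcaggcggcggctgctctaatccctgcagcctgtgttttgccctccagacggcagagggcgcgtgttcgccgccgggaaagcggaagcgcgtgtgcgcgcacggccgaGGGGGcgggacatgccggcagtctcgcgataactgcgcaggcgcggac
SERINC4: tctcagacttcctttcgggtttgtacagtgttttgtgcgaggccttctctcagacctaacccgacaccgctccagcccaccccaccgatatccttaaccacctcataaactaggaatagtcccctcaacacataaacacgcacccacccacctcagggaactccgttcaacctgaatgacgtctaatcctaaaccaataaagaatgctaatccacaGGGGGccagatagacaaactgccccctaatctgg

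The NAT14 window had no peak in either WT library and was covered over 100% in both SCAN1#1 libraries. The other 3 went the opposite way. The RPS15 window had 100% and 98% of its length under peaks in WT, against 10.7% and 0% in SCAN1#1 of experiments 1 and 2. The SERINC4 window was covered over 100% in both WT libraries and over 29.7% and 0% in SCAN1#1. The DDIT4 window had 100% and 64.7% of its length under peaks in WT, against 41% and 0% in SCAN1#1. The separation is set by how the windows were chosen. All these windows were read from the equal-length lists only, so a window at 0% may hold a weaker peak that the cut removed. Over the whole SERINC4 gene, the deposited lists of experiment 2 had 66.3% in WT and 70.9% in SCAN1#1. The upstream stretch of DDIT4 holds 4 runs of G and none of 4 or more C, that of RPS15 2 and 0, that of NAT14 2 and 6, and that of SERINC4 1 and 3. The motif GGGG, read on the gene's strand, occurs in 68.9% of the 27305 stretches of this length in the table, and its complement CCCC in 69.9%. A run of G is therefore common in such windows, and these letters alone do not tell the 4 genes from others.

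The next comparison asks where the peaks of the mutant line lay. In both pairs a larger share of SCAN1#1 peak bases lay at the ends of protein-coding genes and a smaller share between genes. Gene ends, taken as 1 kb to each side of a coding gene start or 3′ end, held 18.5% of peak bases in WT and 19.7% in SCAN1#1 of experiment 1, and 14.5% and 16.1% in experiment 2. SCAN1#1 was above WT within each experiment, but the experiments lay further apart than the genotypes. The paired differences were 1.21 and 1.61 percentage points (mean 1.41 ± 0.287, SD, n = 2 pairs), and the exact two-sided permutation test gave p = 0.667, where the smallest p that 4 libraries allow is 0.333. With the deposited lists the differences were 2.48 and 0.539 points, and with equal covered bases 0.893 and 2.13. How close the pairs came to each other thus depended on how the lists were cut. Where strand is known (79.2% of coding genes), gene starts held 0.556 and 0.926 points more and 3′ ends 0.394 and 0.526 points more in SCAN1#1. Intergenic sequence held 21% in WT and 17.4% in SCAN1#1 of experiment 1, and 27.6% and 25.6% in experiment 2. Gene interiors were at 53.4% and 56.4%, then 49.1% and 49.8%, and genes that do not code for protein at 7.04% and 6.45%, then 8.91% and 8.56%. None of these shares could reach a p under 0.05 in this design.

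In the equal-length lists, peaks of the SCAN1#1 libraries were slightly narrower in the middle of the range and as long or longer at its end. The median width was 412 bases in WT and 386 in SCAN1#1 of experiment 1, and 468 and 459 in experiment 2, a mean log2 ratio of -0.06 (exact permutation test, p = 0.667). With the 40000 strongest peaks the ratio was 0.0098. The deposited lists of experiment 1 had medians of 371 bases in WT and 386 in SCAN1#1. With equal covered bases the medians of experiment 2 were 476 and 483. The direction of the median width thus depended on how the lists were cut. Peaks of 2 kb and longer held 25.4% and 26% of peak bases in experiment 1 and 20.5% and 25.8% in experiment 2. Both SCAN1#1 values lay above both WT values, with p = 0.333, the smallest the exact permutation test can give here. This did not hold with 40000 peaks (32.6% and 32.5% in experiment 1, WT first), with equal covered bases (26.2% and 26%) or with the deposited lists, each with p = 0.667 in the exact permutation test. Peaks of 5 kb and longer numbered 554 and 552 in experiment 1 and 418 and 594 in experiment 2, so only the second pair differed.

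Regions with a peak in one genotype and none in the other were counted next, after merging all peaks of the 4 lists into 121357 regions. Of these, 2851 (2.35%) had a peak in SCAN1#1 and none in WT in both experiments, and are called gained. A further 3692 (3.04%) had a peak in WT and none in SCAN1#1 in both, and are called lost. Many regions went opposite ways: 2132 were gained in experiment 1 and lost in experiment 2, and 3277 the reverse. Each pair alone gave 26518 gained and 28056 lost regions (experiment 1) and 22520 and 22013 (experiment 2). A peak in all 4 libraries was present in 18407 regions (15.2%). Some of the gained and lost regions have a weak peak in the other genotype that the equal-length cut removed: 1689 gained and 2025 lost regions had none in the deposited lists either.

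Gained regions lay at gene ends more often than lost ones. Of the 2851 gained regions 282 (9.89%) lay at gene ends and 729 (25.6%) between genes, against 175 (4.74%) and 1237 (33.5%) of the 3692 lost regions. Over all merged regions the shares were 8.37% and 29.5%, and over regions with a peak in all 4 libraries 18.8% and 25.3%. Gained regions were 539 bases wide at the median and 53 reached 2 kb, whereas lost regions were 450 bases wide and 6 reached 2 kb. All merged regions had a median of 438 bases. These shares are descriptions of the regions in 1 line and were not tested.

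**Figure D1:**
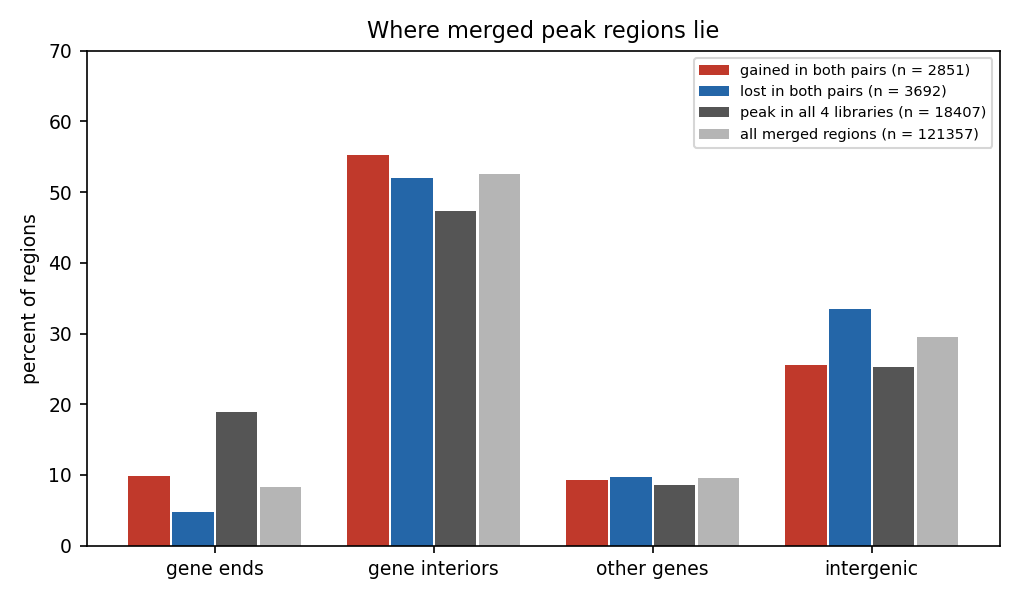
Percent of merged peak regions (vertical axis) at gene ends, in gene interiors, in other genes and between genes, for regions gained in both pairs, lost in both pairs, present in all 4 libraries, and all merged regions. Gene ends make up 9.89% of gained and 4.74% of lost regions, and intergenic sequence 25.6% and 33.5%.

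The gained regions of highest mean fold enrichment (the authors' value per peak, over the caller's background estimate) lay outside coding genes in 4 of the first 5. The first lay on chromosome 21 (chr21:46052329-46053590), 44521 bases from COL6A2, a type VI collagen gene, with folds of 11.5 and 26.3 in SCAN1#1 of experiments 1 and 2. Another lay on chromosome 2 (chr2:100779843-100780913), 37809 bases from NPAS2, a circadian transcription factor gene, with folds of 8.86 and 20.7. A region over the long noncoding RNA genes LINC02257 and LINC02474 (chr1:221966290-221978587) reached 10.6 and 16.3. At 12298 bases it was also the widest gained region, covered over 12251 and 11324 bases in SCAN1#1 and none in WT, though the deposited lists hold a weaker WT peak in at least 1 experiment. Another (chr1:218594725-218599881), 150105 bases from TGFB2, reached 9.80 and 16.6 over 5157 bases. The last of these 5 lay inside PDE4DIP (chr1:148991857-148992475), which encodes a centrosomal and Golgi scaffold, at 10.8 and 15.3. Of the 5, those near COL6A2, NPAS2 and TGFB2 had no WT peak in the deposited lists.

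Among lost regions the highest fold was that of an intergenic region of chromosome 19 (chr19:1546345-1547873), 6798 bases from MEX3D, an RNA-binding protein gene, at 12.8 and 15.9 in WT of experiments 1 and 2. It was followed by regions near NVL on chromosome 1 (8.19 and 12.9), inside CDH1, the E-cadherin gene, on chromosome 16 (11.9 and 8.61), near HEATR5B on chromosome 2 (7.06 and 12.9) and near LONRF3 on the X chromosome (10.5 and 9.47). Of these 5, the one inside CDH1 had a weaker SCAN1#1 peak in the deposited lists and the other 4 did not. The widest lost region was that inside MIDN (chr19:1250848-1254842), 3995 bases, covered over 3283 and 3475 bases in WT. CNN2, a calponin gene of the same part of chromosome 19, held the next (chr19:1027206-1029613), 2408 bases wide.

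Gained and lost regions were spread over many genes. Gained regions touched 1704 coding genes, 229 of them at least 2 times and 43 at least 3 times, and lost regions touched 1838, 288 and 69. Of 19974 coding genes, 15121 had a peak of at least 1 library in the gene or within 1 kb of its ends. Gene length and the number of regions were not allowed for, so the counts do not show that any gene was hit unusually often. PLXND1 and RBFOX1 had the most gained regions, 6 each, and CUX1 the most lost ones, 7. TGM2, BCL2L1 and EYS had 5 gained regions each. RBFOX1 and EYS are very long genes, whereas TGM2 spans 41091 bases and PLXND1 51463.

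Which protein-coding genes differed in coverage in both pairs was asked with the percent of each gene (with 1 kb added at both ends) under peaks. Unless stated otherwise, a percent of a gene or of its length refers to this extended gene. No gene passed in limma with experiment as a block: of 8384 genes tested, 0 were called higher (0%) and 0 lower (0%) at an adjusted p of 0.05, and the smallest adjusted p was 0.646. At an unadjusted p under 0.05 limma had 448 genes higher (5.34%) and 182 lower (2.17%). With each library centred on its mean the split was 347 and 433 (limma), so the excess of higher genes depends on whether the libraries are centred. In simulated libraries of this design on 8384 genes limma called 0 of 68 genes changed by 80 points, 0 of 66 changed by 40 and 0 of 66 changed by 20. A count of 0 therefore says nothing about the size of differences here.

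The pairs can still be set side by side, since they share no library. Coverage was higher in SCAN1#1 in both pairs in 2831 genes (33.8%), lower in both in 1745 (20.8%) and opposite in 3421. The mean difference over tested genes was 0.523 points in experiment 1 and 2.28 in experiment 2. The medians, 0.044 and 0.814 points, were below these means, so centring each library moves genes with little difference to the lower side. Centred counts were 1671 higher and 3314 lower, a turn that follows from the centring and shows no direction. Larger differences kept their order: 308 genes (3.67%) were higher and 93 (1.11%) lower by at least 10 points in both pairs, against 137 (1.63%) that were opposite by that much, and centred the counts were 242, 128 and 137. Past 20 points in both there were 68 (0.811%) and 22 (0.262%). Across the 8384 genes, which are not independent replicates, the 2 differences correlated by r = 0.25 (Pearson) and 0.21 (Spearman). Genes under 10 kb gave 178 of the 308 and 55 of the 93, and genes of 50 to 200 kb 3 and 0.

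**Figure D2:**
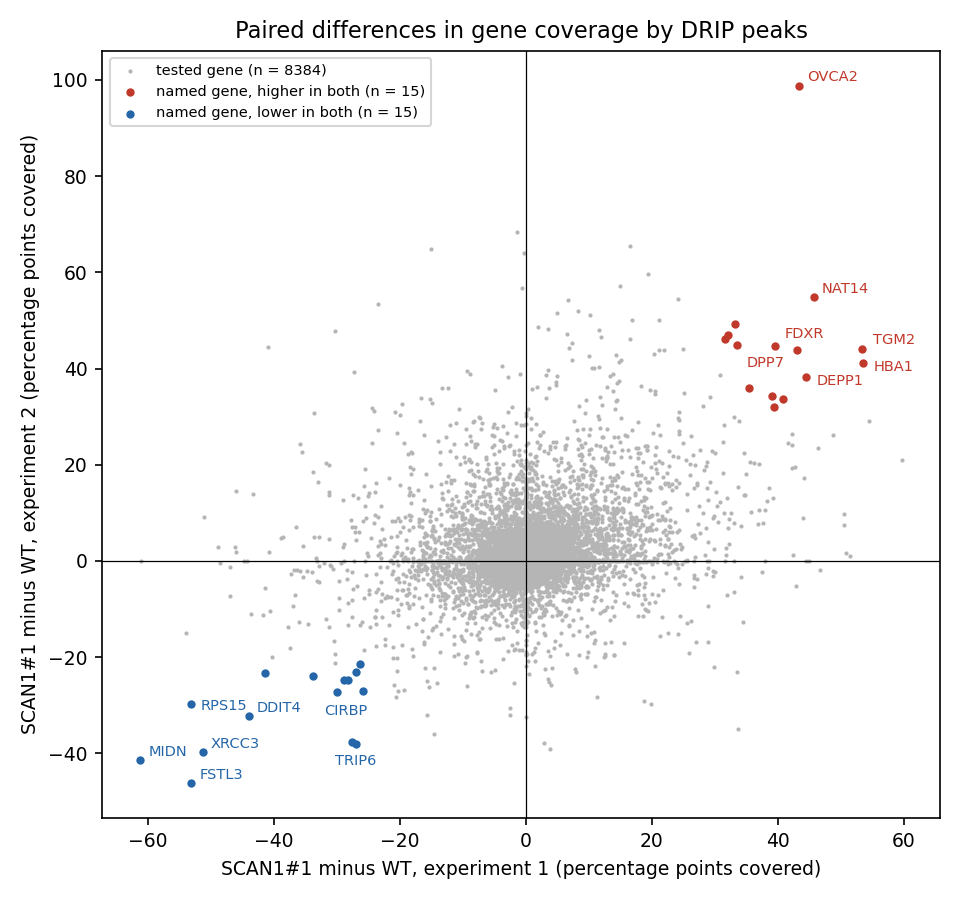
Difference in percent of gene covered, SCAN1#1 minus WT, in experiment 1 (horizontal) and experiment 2 (vertical), in percentage points, for 8384 tested genes (grey), with 15 named genes higher in both (red) and 15 lower in both (blue). Most genes sit near the origin, and OVCA2 stands highest at 98.8 points in experiment 2, where the WT value of 0% is 51.1% in the deposited list.

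No gene having passed, the 15 genes per direction described next are those whose smaller paired difference was largest. Each has an adjusted p of 0.646 (limma). In all 15 genes on the higher side both SCAN1#1 values lay above both WT values, which held for 19.5% of tested genes, and in all 15 on the lower side both lay below, which held for 10% of tested genes. The direction within pairs was set by the choice of the genes and is no support. All 30 kept the direction of their mean difference in each alternative list length, ranking and gene window tried, except that 2 could not be tested at gene ends only. The equal-length cut moved many of the values below, and deposited values are given for some genes only.

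On the higher side, several genes with little coverage in WT cells were covered over a large part in the mutant line. TGM2, which encodes tissue transglutaminase, a protein cross-linking enzyme (chr20:38127385-38168475), had 1.53% and 1.46% of its length under peaks in WT, against 54.9% and 45.6% in SCAN1#1 of experiments 1 and 2. Inside it, a gained region of 5241 bases (chr20:38133779-38139019) lies beside a region with a peak in all 4 libraries (chr20:38140595-38149674). In that region peaks covered 661 and 630 bases in WT and 8701 and 8483 in SCAN1#1, the largest widening of any shared region in both pairs. PLXND1, a semaphorin receptor gene (chr3:129555214-129606676), had 0.729% and 0% of its length under peaks in WT, against 41.6% and 33.7% in SCAN1#1. At gene ends only its difference was less than 50% of this. LAMB3, which encodes the beta chain of laminin-332 (chr1:209614870-209652425), was at 6.79% and 10.5% in WT and 46.3% and 42.5% in SCAN1#1. CLDN4, a tight junction claudin gene (chr7:73830996-73832690), was at 2.22% and 0% against 33.8% and 46.1%. In each of these 4 genes the lower SCAN1#1 value was several times the higher WT value.

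DPP7, a dipeptidyl peptidase gene (chr9:137110546-137118306), had 5.16% and 0% of its length under peaks in WT, against 44.8% and 44.7% in SCAN1#1. DEPP1, a regulator of autophagy (chr10:44976128-44978809), was at 0% and 10.1% against 44.5% and 48.3%. HBA1, an alpha globin gene (chr16:176680-177522), was at 0% and 12.6% against 53.5% and 53.8%. HBA1 has a near-identical neighbour, HBA2, so its peaks may be split between the 2 copies, and the deposited WT list of experiment 1 covers it over 47.0%. In the deposited lists the WT values of DPP7 were 9.21% and 10.2% and those of DEPP1 0% and 10.1%, so these 2 differences are also present without the equal-length cut.

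FDXR, which encodes ferredoxin reductase, a mitochondrial electron carrier enzyme and p53 target (chr17:74862497-74872994), had 28.4% and 25.2% of its length under peaks in WT, against 71.5% and 68.9% in SCAN1#1. COA3, an assembly factor of cytochrome c oxidase (chr17:42797625-42798704), was at 51.1% and 21% against 84.6% and 65.8%. The deposited WT list of experiment 2 covers FDXR over 39.6% and COA3 over 41.9%. PRAME, a cancer-testis antigen gene (chr22:22547701-22559265), was at 41.9% and 32.1% against 81.0% and 66.4%. LIMD2, a LIM domain gene (chr17:63695888-63701155), was at 30.9% and 33.7% against 63.0% and 80.8%. For these genes WT cells already had peaks, and SCAN1#1 had more. OVCA2, a hydrolase gene of chromosome 17 (chr17:2042022-2043425), was at 30.8% and 0% against 74.2% and 98.8%. The deposited WT list of experiment 2 covers OVCA2 over 51.1%, and its mean difference was 45.5 points with the deposited lists and 71.1 with the equal-length ones. The homeobox gene SEBOX (chr17:28363506-28365199) was at 46.7% and 50.7% against 79.8% and 100%, though the deposited WT list of experiment 1 covers it over 66.7%. NAT14, an acetyltransferase family gene, was at 36.9% and 16.4% against 82.6% and 71.3%, and its neighbour ZNF628, a zinc finger gene, at 51.3% and 37.1% against 86.8% and 73.1%. NAT14 (chr19:55485188-55487566) and ZNF628 (chr19:55476617-55484487) lie next to each other, so their extended windows overlap.

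On the lower side, 4 of the 15 genes lie within the first 5 Mb of chromosome 19, in which SCAN1#1 had a smaller share of peak bases in both pairs (log2 -0.35 and -0.40). FSTL3, which encodes a secreted inhibitor of activin (chr19:676392-683385), had 96.6% and 83.7% of its length under peaks in WT, against 43.4% and 37.6% in SCAN1#1. MIDN, the gene of midnolin, which takes proteins to the proteasome (chr19:1248583-1259143), was at 70.2% and 41.4% against 8.96% and 0%. RPS15, of the small ribosomal subunit (chr19:1438396-1440495), was at 78.0% and 56.8% against 24.8% and 27.1%. In the deposited lists of experiment 2 RPS15 was at 56.8% in WT and 38.1% in SCAN1#1. CIRBP, whose RNA-binding product is induced by cold (chr19:1269332-1274880), was at 88.8% and 80.8% against 58.8% and 53.6%. In none of the 4 did the WT and SCAN1#1 values overlap, which follows from how they were chosen. Both SCAN1#1 values lay below both WT values in 10% of all tested genes.

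XRCC3, a gene of homologous recombination on distal chromosome 14 (chr14:103697617-103715451), had 78.4% and 46.0% of its length under peaks in WT, against 27.1% and 6.23% in SCAN1#1. It lies in a 5 Mb bin that was itself lower by 1.71 and 1.79 on the log2 scale. In the deposited lists of experiment 2 XRCC3 was at 56.0% in WT and 24.2% in SCAN1#1. DDIT4, a stress-induced inhibitor of the growth kinase mTORC1 (chr10:72273924-72276036), was at 60.4% and 32.3% against 16.3% and 0%, outside any shifted bin. TRIP6, an adaptor protein gene of focal adhesions (chr7:100867387-100873454), was at 80.7% and 84.5% against 53% and 46.8%. THY1, which encodes a glycoprotein on the surface of fibroblasts (chr11:119415476-119424985), was at 51.1% and 44.1% against 17.2% and 20.3%. MT1E, a metallothionein gene (chr16:56625781-56627112) with close paralogs beside it, was at 41.8% and 58.4% against 15.8% and 31.5%. COX5B, a cytochrome c oxidase subunit gene (chr2:97646062-97648383), was at 55.0% and 53.7% against 26.8% and 29.0%. In the deposited lists of experiment 2 COX5B was at 53.7% in WT and 45.1% in SCAN1#1.

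SERINC4 (chr15:43794162-43800220) was at 93.0% and 66.3% in WT and 51.6% and 43.0% in SCAN1#1. In the deposited lists of experiment 2 it went the other way, at 66.3% in WT and 70.9% in SCAN1#1. SNAPC5, a subunit of the complex that activates snRNA genes (chr15:66489748-66497762), was at 61.7% and 38.4% against 32.8% and 13.6%. TMEM141 (chr9:136791344-136793317) was at 42.5% and 37.9% against 15.5% and 0%, inside a bin whose share was higher in SCAN1#1 (log2 0.41 and 0.35), so the gene went against its surroundings. BEX4 (chrX:103215092-103217246) was at 27.0% and 23% against 0% in both, though the deposited SCAN1#1 list of experiment 2 covers it over 18.7%. ZNHIT1, a subunit of the SRCAP chromatin remodeller (chr7:101218165-101224190), was at 45.0% and 21.4% against 18.6% and 0%, and in the deposited lists of experiment 2 at 21.4% and 18.4%. With 40000 peaks per list the differences of ZNHIT1, COX5B and CLDN4 were less than 50% of these.

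**Figure D3:**
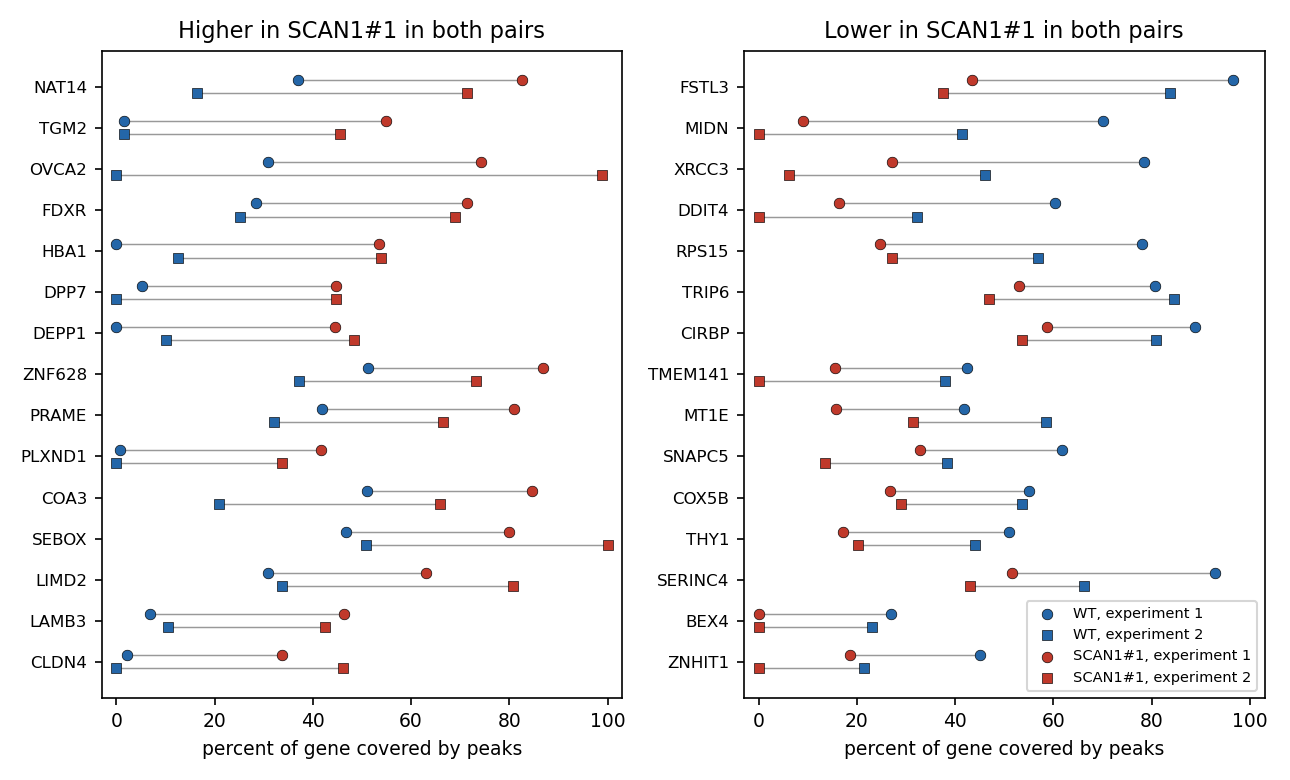
Percent of each named gene (1 kb added at both ends) covered by peaks in the WT (blue) and SCAN1#1 (red) libraries of experiment 1 (circles) and experiment 2 (squares), with lines joining the libraries of a pair. TGM2, PLXND1, DPP7 and CLDN4 sit at or near 0% in WT, and MIDN and BEX4 at or near 0% in SCAN1#1 of experiment 2.

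Gene lists were then described by how many tested members were higher or lower in both pairs, beside 33.8% and 20.8% of all tested genes, and by the mean difference, beside 0.523 and 2.28 points in experiments 1 and 2. Tested genes under 10 kb had means of 0.266 and 4.43 points, with 31.0% higher and 17.2% lower in both pairs. The lists were not matched for gene length, so a list of short genes can differ from all tested genes for that alone. No list is tested. With the deposited lists in place of equal lengths, the means of only 6 of 21 lists had the same sign in both pairs, against 16 here. No list changed the sign of its mean over both pairs.

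Targets of p53, the transcription factor of the DNA damage response, were higher in both pairs in 17 and lower in 3 of 26 tested members. Their mean coverage was 28.7% in WT and 35.5% in SCAN1#1 of experiment 1 and 25.2% and 32.4% in experiment 2, differences of 6.83 and 7.19 points. Of the list, 5 members were higher by at least 10 points in both. BTG2, an antiproliferative gene, had 0% and 12.7% of its length under peaks in WT, against 11.6% and 53% in SCAN1#1. GDF15, a stress-induced cytokine gene, was at 0% in both WT libraries and at 21.8% and 17.4% in SCAN1#1. BBC3, which encodes the apoptosis inducer PUMA, was at 38.4% and 25% against 56.4% and 47.4%. PLK3, a kinase gene, was covered over more than 90% in every library (91.7% and 91.8% in WT, 97.3% in both SCAN1#1). The lower members were the polymerase gene POLH (27.2% and 6.89% in WT, 18.3% and 3.03% in SCAN1#1), PLK2 and PHLDA3.

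Genes of the integrated stress and unfolded protein responses went the other way: 1 of 19 tested members was higher and 7 were lower in both pairs, with means of 42.0% and 35.5% in experiment 1 and 34.5% and 31.6% in experiment 2. DDIT4 stands above. CHAC1, a glutathione-degrading enzyme gene and ATF4 target, had 36.7% and 36.1% of its length under peaks in WT, against 6.25% and 19.5% in SCAN1#1. PHGDH, of serine synthesis, was at 19.2% and 18% against 5.84% and 10.8%, and DDIT3, which encodes the transcription factor CHOP, at 78.7% and 65.6% against 71.4% and 56.1%. HSPA5, the chaperone of the endoplasmic reticulum, was the higher member (9.78% and 9.06% in WT, 19.2% and 13.5% in SCAN1#1). ATF4 itself was at 100% and 98% in WT and 100% and 80.6% in SCAN1#1.

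Lists of repair genes gave no common direction. Of 20 tested topoisomerase and strand-break repair genes, 9 were higher and 4 lower in both pairs, with mean differences of 4.75 and 0.253 points. LIG3, the ligase of single-strand break repair, had 2.58% and 0% of its length under peaks in WT, against 11.5% and 21.7% in SCAN1#1, and its partner XRCC1 had 6.38% and 2.64% against 15.5% and 6.75%. APEX1, an endonuclease of base excision repair, was lower (89.4% and 82.4% in WT, 82.3% and 73.2% in SCAN1#1), as was APTX, which removes AMP from broken ends (12.3% and 8.21% against 4.77% and 2.99%). Double-strand break and Fanconi genes had 5 of 21 higher and 6 lower, XRCC3 being the largest; XRCC6, a Ku subunit gene, was at 42.0% and 22.5% in WT and 54.8% and 27.2% in SCAN1#1. R-loop processing and mRNA export genes had 6 of 20 higher and 8 lower. SENP3, a SUMO protease gene, was at 93.4% and 69.9% against 100% and 95.5%. The export adaptor gene ALYREF was at 90.6% and 53.1% in WT and 68.2% and 45.4% in SCAN1#1. Of 16 ataxia and repeat expansion genes 8 were higher and 2 lower, with AFG3L2, a mitochondrial protease gene, at 14.6% and 8.63% against 29.1% and 19.7%.

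Among housekeeping lists, most members with a direction were higher, as over all genes. Replication-dependent histone genes had 15 of 34 higher and 1 lower, with means of 50.2% and 55.9% in experiment 1 and 33.7% and 46.2% in experiment 2. H4C5, with its added ends, was at 55.7% and 0% in WT, against 79.8% and 54.4% in SCAN1#1, and H2BC14 at 28.7% and 0% against 70.4% and 24.5%. Both genes are shorter than the 1 kb added at each end, so most of each window is flanking sequence. Histone genes are near copies of each other, so counts between members are uncertain. Proteasome genes had 18 of 30 higher and 4 lower (means 3.15 and 5.01 points), with the catalytic subunit genes PSMB6 at 17.4% and 0% against 22.1% and 36.7% and PSMB5 at 30.3% and 19.7% against 47.7% and 39.2%. PSMD7, of the regulatory lid, was at 49.1% and 23.5% against 30.6% and 14.2%. Genes of SR and hnRNP splicing factors had 13 of 30 higher and 3 lower, with HNRNPK at 24.7% and 15.2% against 45.5% and 24.9% and HNRNPA3, a lower member, at 58.0% and 39.4% against 40.5% and 37.5%. Cytosolic ribosomal protein genes had 23 of 78 higher and 8 lower: RPL9 was at 17.9% and 8.90% against 42.2% and 39.8%, and RPS15 was the member with the largest difference the other way. The 8 coding snoRNA hosts had 4 higher and 1 lower, with NCL, the nucleolin gene, at 56.8% and 58.5% against 71.1% and 59.9%, and TAF1D, the lower one, at 43.6% and 38.7% against 29.7% and 34.0%. Translation factors had 10 of 31 higher and 5 lower, with EEF1B2 at 19.4% and 27.1% against 33.8% and 37.3% and EIF3I at 58.0% and 30.7% against 29.5% and 26.9%. Nuclear respiratory chain genes had 16 of 43 higher and 7 lower, where NDUFV1 was at 33.4% and 30.7% against 35.7% and 57.0% and UQCR11 was at 56.4% and 7.36% in WT and 9.39% and 0% in SCAN1#1.

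Of immediate early genes 9 of 24 were higher and 2 lower, with IER2 at 54.7% and 25.6% in WT and 59.6% and 77.1% in SCAN1#1, and the transcription factor gene KLF6 at 27.9% and 14.5% against 42.2% and 47.8%. Heat shock and chaperone genes had 7 of 18 higher and 4 lower, with HSF1, the heat shock transcription factor gene, at 81.5% and 36.7% against 88.7% and 50.1% and the cochaperone gene DNAJA1 at 28.6% and 17.8% against 9.68% and 10.8%. Glycolysis genes had 6 of 18 higher and 4 lower, led by the glucose transporter gene SLC2A1 (19.8% and 9.74% against 42.5% and 25.3%) and by PGAM1 on the lower side (43.3% and 30.4% against 17.6% and 11.8%). Cell cycle and mitosis genes had 7 of 38 higher and 14 lower. The survivin gene BIRC5 was at 43.4% and 34.7% in WT and 27.7% and 2.73% in SCAN1#1, the mitotic transcription factor gene FOXM1 at 92.3% and 60.7% against 71.4% and 34.9%, and TK1, of thymidine salvage, at 59.3% and 43.1% against 44.4% and 28.7%. Among the higher members were the mitotic kinase gene AURKB (54.8% and 48.4% against 67.4% and 61.1%) and the cyclin gene CCNA2 (12.9% and 8.19% against 24.7% and 14.8%), both in shifted bins.

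Collagen, matrix and mesenchymal genes split evenly, 9 of 25 higher and 9 lower. COL1A1, of type I collagen, was at 66.7% and 55.8% in WT and 26.4% and 35.9% in SCAN1#1, and LOXL4, a collagen cross-linking enzyme gene in a shifted bin of chromosome 10, at 49.3% and 58.8% against 28.6% and 30.6%. LAMB3 (above) and TGFBI, a matrix protein gene (0.934% and 0% against 16.7% and 14.9%), stood on the other side. TGFBI also lies in a shifted bin. Other named list members in bins shifted their way include FDXR, PSMB6, PSMD7, KLF6, PGAM1, UQCR11, DNAJA1, APTX and SENP3. Of the 9 osteoblast and mesenchymal markers 2 were higher and 3 lower, and of the 5 epithelial ones 0 and 3. Of the 3 neuronal ones 0 were higher and 1 lower. Metallothioneins had 3 tested members, 2 higher and 1 lower: MT2A was at 38.4% and 50.9% against 60.1% and 71.2%, opposite to MT1E. Of 9 loci used as DRIP positive controls 3 were higher and 0 lower, ACTB being covered throughout (100%) in all 4. The 2 tested negative control loci were both higher. No very long or fragile-site gene passed the minimum, with means of 0.173% to 0.523% over the list.

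**Figure D4:**
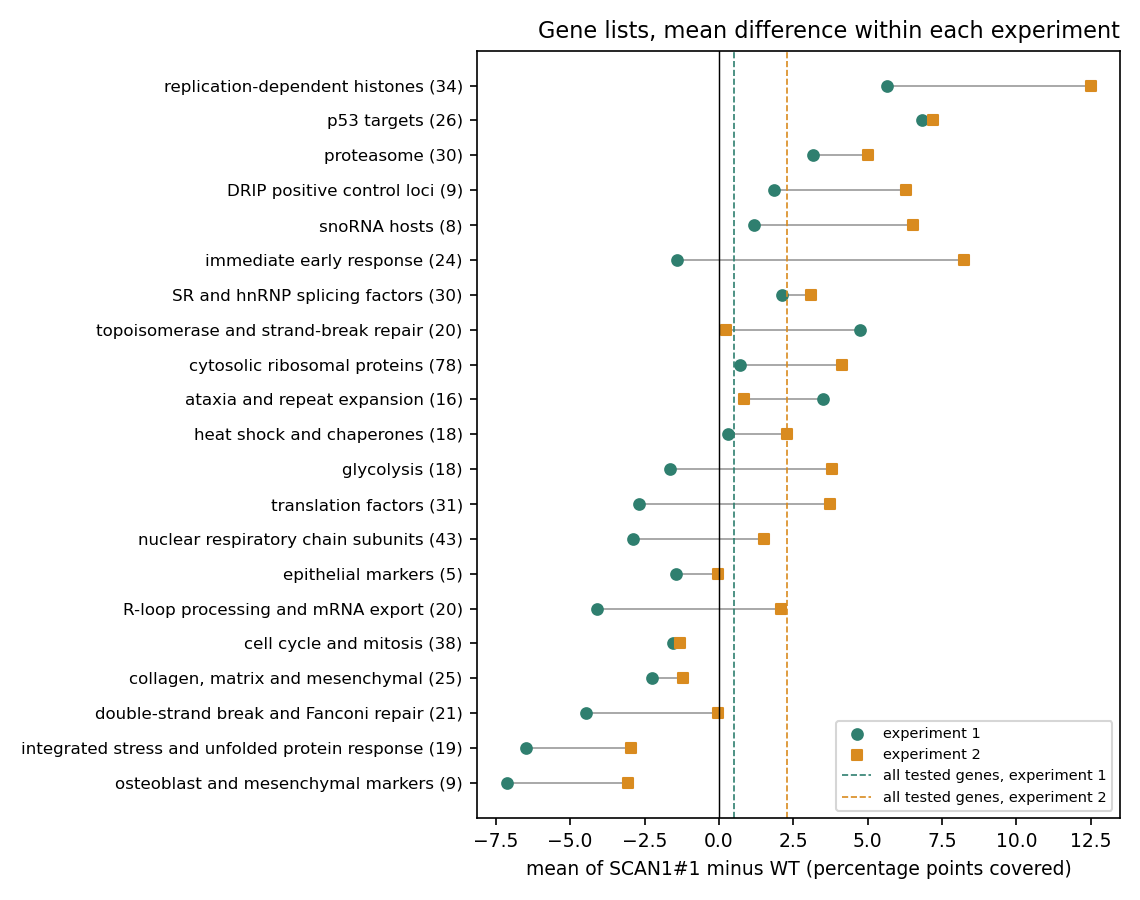
Mean difference in percent of gene covered, SCAN1#1 minus WT, in experiment 1 (circles) and experiment 2 (squares), in percentage points, for each gene list with at least 5 tested members (number in brackets), with dashed lines at the mean of all tested genes. The p53 list stands at 6.83 and 7.19, and the stress response list at -6.50 and -2.97.

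How the peak bases of a list were divided along the chromosomes was asked with bins of 5 Mb. Of 563 bins with at least 10 peaks on average, 36 (6.39%) had a higher and 51 (9.06%) a lower share in SCAN1#1 by more than 0.3 on the log2 scale in both pairs, and 6 went opposite ways by that much. The 2 log2 ratios correlated by r = 0.71 across bins. Limma with experiment as a block was chosen after the data were seen, with the spread pooled over bins. At an adjusted p under 0.05 this limma fit had 54 bins (9.59%) higher and 69 (12.3%) lower. Each bin took its spread from the pool and none from its own pairs. These p-values therefore do not measure the spread between libraries within a bin. Of these 123 bins, 67 were among the 87 shifted bins. Both calls come from the same log2 ratios, so this overlap is no separate support. Adjacent shifted bins joined to 29 higher blocks over 171 Mb and 28 lower blocks over 250.1 Mb.

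The lowest block was the end of chromosome 14, from 90000001 to 106879844. It had 246 peaks in WT and 67 in SCAN1#1 of experiment 1, and 191 and 38 in experiment 2, log2 ratios of share of -2.00 and -2.19. Of its 26 tested genes 20 were lower and 1 higher in both pairs, and XRCC3 had the largest difference. TDP1 ends at 90044764, at the start of this block, while the bin before it differed by -0.27 and -0.04. Other lower blocks were chromosome 16 from 10000001 to 15000000 (-1.02 and -0.88), where the translation termination factor gene GSPT1 was at 9.36% and 6.50% in WT and 1.62% and 1.08% in SCAN1#1, chromosome 10 from 115000001 to 125000000 (-0.94 and -0.74) and chromosome 2 from 30000001 to 60000000 (-0.68 and -0.53). In the last, 25 of 47 tested genes were lower and 4 higher in both pairs, led by CALM2, a calmodulin gene (38.6% and 25.5% against 30.2% and 18.2%). In the first 5 Mb of chromosome 19, 41 of 108 were lower and 14 higher.

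The longest higher block was chromosome 8 from 5000001 to 25000000 (0.78 and 0.69), with 199 peaks in WT and 348 in SCAN1#1 of experiment 1 and 253 and 402 in experiment 2. Of its 31 tested genes 18 were higher and 4 lower, led by the lysosomal protease gene CTSB (4.87% and 1.94% in WT, 26.1% and 17.3% in SCAN1#1). Chromosome 17 up to 15000000 (0.65 and 0.79) had 583 and 945 peaks, then 378 and 588, and 114 of its 155 tested genes were higher and 5 lower, with OVCA2 the largest. The end of chromosome 19 (0.57 and 0.45), where NAT14 lies, had 53 of 87 genes higher and 3 lower, and the end of chromosome 9 (0.41 and 0.35), with DPP7, 38 of 61 and 1. Over all bins with a higher share 360 of 569 tested genes were higher and 29 lower in both pairs, and over bins with a lower share 61 of 522 were higher and 220 lower. Bins and genes were read from the same peaks, so genes of a shifted bin were bound to lean its way. The gene counts per bin and block describe the shifts and are no separate support.

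Some of the genes that differed most lay in shifted bins and most did not. Of the 308 genes higher by at least 10 points in both pairs 77 (25%) lay in higher bins, against 6.79% of tested genes, and of the 93 lower ones 17 (18.3%) lay in lower bins, against 6.23%. The same peaks set both calls, so an excess is built into these shares. With all genes of shifted bins left out, 7293 genes were tested and limma again called 0, and 355 genes were higher and 128 lower before adjustment (unadjusted p under 0.05). The mean difference of the p53 list was then 5.14 points. The number of copies of a block in either line was not tested, since the input libraries are not analysed here.

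**Figure D5:**
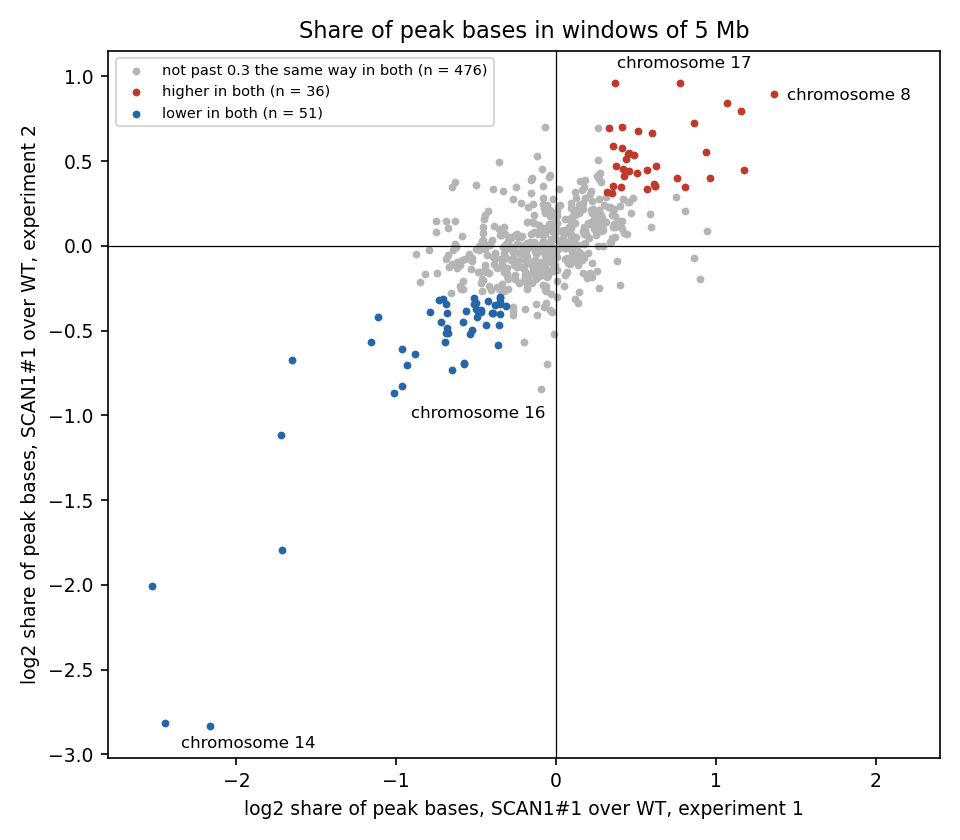
Log2 ratio, SCAN1#1 over WT, of the percent of all peak bases that lay in each 5 Mb bin, in experiment 1 (horizontal) and experiment 2 (vertical), for 563 bins. Bins past 0.3 the same way in both are red (36 higher) or blue (51 lower), and the 4 bins of distal chromosome 14 lie at the lower left.

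Last, the 18407 regions with a peak in all 4 libraries were compared by width and by rank of their -log10 p within each list. Peaks covered at least 2 times as many bases in SCAN1#1 in both pairs in 180 regions (0.978%) and at most 0.5 times in 92 (0.5%), while 175 went opposite ways. After TGM2, the largest widenings lay inside FBXO17, an F-box gene of chromosome 19 (656 and 535 bases in WT, 3327 and 3190 in SCAN1#1), and NOL4L on chromosome 20 (441 and 477 against 2148 and 2640). The largest narrowings were at OOEP on chromosome 6 (1602 and 1278 bases against 306 and 308), inside MAMSTR on chromosome 19 (999 and 1244 against 245 and 351) and inside COPE, a subunit gene of the COPI vesicle coat (1312 and 977 against 254 and 285).

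Ranks moved by at least 25 percentile points upward in both pairs in 524 regions (2.85%) and downward in 500 (2.72%), against 753 that went opposite ways, and the rank shifts of the pairs correlated by only r = 0.08. A region inside TRAPPC3, of a vesicle tethering complex, ranked 56666 and 60297 in WT and 3282 and 6665 in SCAN1#1, an intergenic region of chromosome 14 ranked 60808 and 59549 against 5525 and 7125, and one at SMAD4, the common mediator of TGF-beta signals, 54266 and 56844 against 2889 and 12064. In the other direction a region inside CARNS1, of carnosine synthesis, ranked 6257 and 10065 in WT and 55898 and 59105 in SCAN1#1. Over all shared regions the 2 shifts were close to unrelated.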

How the data were processed

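DRIP-seq of U2OS cells was used as deposited peak lists, 1 per library, on hg38. Non-crosslinked nuclei gave sonicated nucleic acids for S9.6 immunoprecipitation, per the labels' protocols. The submitters' processing notes name MACS3 3.0.0a6 and BWA 0.7.17-r1188 beside SAMtools 1.9, FastQC 0.11.5 and deepTools 3.5.1. For peak calling, the control and thresholds are not stated in those sources. The authors' fold enrichment (a ratio) and the deposited -log10 p and -log10 q values per peak were kept as they stand.

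Lists were cut to 63456 peaks by -log10 p. Peaks were set on 19974 protein-coding genes of the RefSeq GRCh38.p14 gene table, which holds no exons. Percent of gene covered (mean of at least 2%) was tested with limma 3.58.1 (R 4.3.3; trend, experiment as a block, Benjamini-Hochberg threshold 0.05). Bins of 5 Mb needed a mean of 10 peaks, with 500 bases added to each value. Other steps used Python 3.11.15, pandas 2.3.3 and numpy 2.4.6, and figures matplotlib 3.10.9. The fit was tested on simulated data.

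Replicate numbers are experiment numbers in the labels, and deviations of same-numbered libraries correlated by 0.57 over 8384 genes, so the pairs were kept. Members and gene lists were chosen with earlier results of these data known. Named were the 15 genes per direction with the largest smaller paired difference, members from among the 4 per list and direction with the largest mean difference or the 3 of highest coverage (fewer than the planned 2 to 4 for some marker, control and repeat expansion lists), the 5 gained and 5 lost regions of highest mean fold, the gene with the largest paired difference per block, and TDP1. Wide regions, rank and width examples and promoters were chosen after their values were seen. Alternatives were other list lengths and rankings, gene windows, filters, scales, bin sizes, no block and left-out libraries. Values of some genes are not reported here.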

Additional observations from a re-analysis of the deposited data

Results flagged for a closer look

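Of the values per library or per list, 8 went opposite ways in the 2 experiments, and these differences between experiments were not tested. The log2 ratio of SCAN1#1 over WT was -0.044 in experiment 1 and 0.08 in experiment 2 for covered bases, -0.0052 and 0.51 for the number of peaks of 5 kb and longer, and -0.38 and 0.31 for the number of peaks in the deposited lists. The mean difference in gene coverage, in percentage points, was -4.11 and 2.08 for R-loop processing and mRNA export genes. It was -1.40 and 8.25 for immediate early genes and -1.65 and 3.80 for glycolysis genes. It was -2.70 and 3.72 for translation factors and -2.90 and 1.53 for nuclear respiratory chain genes. All tested genes had means of 0.523 and 2.28 points.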

How the results depend on the processing

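Gene calls stayed at 0 in all 16 alternatives of the limma fit, with smallest adjusted p-values of 0.311 to 0.975, and the simulated fit called none at any size, so this count has no bearing on stability. The labels pair the libraries by experiment; without the replicate block limma again called 0 genes, and before adjustment (p under 0.05) 244 were higher and 100 lower. Without WT replicate 2 that split was 101 higher and 231 lower, and without each of the other libraries it was 216 and 110, 270 and 101, and 374 and 121. Regions gained in both pairs numbered 1689 when those in the deposited lists of the other genotype were left out and 1836 with 40000 peaks, and lost regions 2025 and 2333. With either pair alone, 22520 to 26518 regions were gained and 22013 to 28056 lost. Gene ends taken as 2 kb differed by 2.02 points, and the median width ratio with 40000 peaks was 0.0098 on the log2 scale. Bins shifted the same way numbered 193 at 2 Mb and 37 at 10 Mb. With the deposited lists 6 of 21 gene lists, against 16, had means of the same sign in both pairs. The mean over both pairs changed sign for R-loop processing, cell cycle, collagen and osteoblast lists at gene ends only, for R-loop processing and respiratory chain lists with 40000 peaks, for translation factors with equal covered bases, for heat shock, glycolysis and translation lists with libraries centred on their mean, and for the respiratory chain list with genes of shifted bins left out. Of single pairs, experiment 2 alone turned the R-loop and respiratory chain means, and experiment 1 alone the immediate early, glycolysis and translation means. The cause was not tested. The 4 libraries, 1 mutant line and unknown depth limit every value.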
